A study of Mus musculus with 6 samples.

Results

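The genes described here encode ligands, receptors, a secreted antagonist and a target of bone morphogenetic protein (BMP) signaling. The set was given as a list of 9 symbols, Bmp2, Bmp3, Bmp4, Bmp6, Bmp7, Bmpr1a, Bmpr2, Grem1 and Id1, which were looked up among the 17924 genes of the authors' expression table. A row was found for 8 of them, and Bmp7, a ligand known for its role in brown fat, was not analysed here. Fibroblasts from the dorsal dermis of newborn (P0) mice were kept in adipocyte differentiation medium for 14 days, and RNA-seq was then performed on 3 biological replicates of CTL cells and 3 of Nelfb-/- cells. All mice carried Pdgfra-Cre, which acts in preadipocyte lineages, on a C57BL/6J background. Nelfb-/- cells had both Nelfb alleles floxed, whereas CTL cells had a single floxed allele or none, and the labels do not say which of these each CTL replicate had. Nelfb encodes a subunit of the NELF complex, which holds RNA polymerase II shortly after the start of transcription. Cells of the dermis outside the Pdgfra lineage would keep Nelfb, and no sort of the cells is described for the RNA-seq libraries.

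BMP ligands are secreted dimers of the TGF-beta superfamily. They bind a complex of type I receptors, such as Bmpr1a, and type II receptors, such as Bmpr2, which phosphorylates Smad1, Smad5 and Smad9 and thereby turns on targets such as the Id genes. Secreted antagonists such as Grem1 bind the ligands and keep them from the receptors. In mesenchymal cells, BMP2 and BMP4 are known to promote commitment to the fat and bone lineages.

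Values are in CPM (counts of a gene relative to 1e+06 counts over the genes of the table). The libraries held 17.2 to 29.4 M reads (M stands for 1e+06), so that 3 reads, the floor of detection, were worth 0.102 to 0.175 CPM. Nelfb itself had CTL values of 17.3, 19.6 and 22.3 CPM and Nelfb-/- values of 5.50, 3.90 and 5.55 CPM (each in the order of replicates 1, 2 and 3, as throughout), so that RNA of the gene was still counted in the deleted cells. The summed CPM of 10 adipocyte markers was 41985, 38883 and 24788 in CTL and 17804, 25965 and 22151 in Nelfb-/- cells, and CTL replicate 3 lay below Nelfb-/- replicate 2. Markers of other cells also differed between libraries. The sum of 8 macrophage markers was 206 to 743 CPM over CTL and 2052 to 6453 CPM over Nelfb-/- libraries, with the highest sum in Nelfb-/- replicate 1, and 7 of the 8 were upregulated. The sum of 8 fibroblast markers was 4404 to 16812 CPM over CTL and 8255 to 33208 CPM over Nelfb-/- libraries, with CTL replicate 3 as the highest CTL library. The sum for melanocytes and Schwann cells (7 of 8 markers measured) was 25.1 to 30.9 CPM in CTL and 141 to 169 CPM in Nelfb-/- cells, and that of 7 skeletal muscle markers was 6.86 to 7.17 and 37.9 to 62.9 CPM. Endothelial markers (7 genes) summed to 7.51 to 10.7 CPM and 8.38 to 22.8 CPM, and 5 of 7 keratinocyte markers to 1.94 to 2.48 CPM and 3.89 to 13.3 CPM. No measured marker of these lists was at or under 3 reads in every library, and of those with enough reads to be tested, 7 of 7 melanocyte and Schwann cell, 5 of 5 muscle, 1 of 5 endothelial and 1 of 3 keratinocyte markers were upregulated. Of the 10 adipocyte markers 1 was downregulated, and 0 of the 8 fibroblast markers passed in either direction. The part of these differences in the results below was not tested. The sources do not say whether the replicates came from separate mice, and if not, p-values measure the spread between cultures.

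Because NELF acts close to the start of genes, promoter sequences are shown for Bmp4, Grem1 and Bmp8a. Bmp4 and Grem1 did not pass the threshold for change given below. Of the 9 members, 5 matched an entry of RefSeq (GRCm38.p6), and Bmp2, Bmp3, Bmp7 and Id1 did not. For Bmp4 and Grem1 the RefSeq start lies within 2 bases of the start of the gene in GENCODE, whereas for Bmp6, Bmpr1a and Bmpr2 it lies 609, 795 and 879 bases inside the gene. Of other pathway genes past the threshold, Chrdl1 and Bmp1 had no entry, and the entries of Bmpr1b start 187161 or more bases inside the gene. The 250 bases before the start are printed for Bmp4 and Grem1, which had the lowest and the highest mean per length of exon among the 8 members measured, and for Bmp8a, a further BMP ligand that was downregulated, each on its coding strand from 5′ to 3′. They are chr14:46390670-46390919 for Bmp4, chr2:113758649-113758898 for Grem1 and chr4:123343253-123343502 for Bmp8a, all on the minus strand. Capitals mark the GC box, the core of Sp1 binding sites (GGGCGG, or CCGCCC on the other strand), and the CCAAT box (CCAAT or ATTGG).
Bmp4: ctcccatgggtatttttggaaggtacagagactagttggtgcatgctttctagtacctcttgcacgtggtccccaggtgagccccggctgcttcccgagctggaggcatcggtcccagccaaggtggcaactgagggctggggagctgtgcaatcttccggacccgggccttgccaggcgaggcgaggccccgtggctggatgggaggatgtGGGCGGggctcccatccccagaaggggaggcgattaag
Grem1: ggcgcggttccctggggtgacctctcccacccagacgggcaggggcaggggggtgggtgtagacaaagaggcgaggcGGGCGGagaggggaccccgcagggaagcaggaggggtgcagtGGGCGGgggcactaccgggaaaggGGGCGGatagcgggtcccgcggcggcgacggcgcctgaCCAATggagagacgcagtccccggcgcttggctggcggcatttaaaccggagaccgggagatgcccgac
Bmp8a: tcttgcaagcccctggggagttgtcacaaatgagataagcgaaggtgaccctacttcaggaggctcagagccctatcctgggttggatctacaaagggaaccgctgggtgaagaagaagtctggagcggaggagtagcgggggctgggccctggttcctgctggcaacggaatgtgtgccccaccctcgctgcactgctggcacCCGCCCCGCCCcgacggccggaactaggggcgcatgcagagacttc
The GC box was matched 1 time before Bmp4, 3 times before Grem1 and 2 times, as overlapping matches, before Bmp8a. Grem1 also held 1 CCAAT box, 69 bases before its start. Of 32851 RefSeq promoters, 32.7% held a GC box on either strand in these 250 bases, and 33.8% held a CCAAT box. A TATA box (TATAA or TTATA), held by 22.8% of all promoters, was matched in none of the 5 members with an entry. A match of letters is not a site of binding.

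None of the 8 BMP genes passed the threshold in limma, set at 2-fold or more with an adjusted p no higher than 0.05, where 11.2% of the 16251 genes tested did (7.58% up, 3.64% down). Bmp2 had the lowest adjusted p of the 8, 0.11 (limma), and was lower in Nelfb-/- cells, and the ligands Bmp3, Bmp4 and Bmp6 had higher means. An unadjusted p under 0.05 was given for 2 of the 8 genes, Bmp2 and Bmp6, against 32.5% of all genes. The groups did not overlap at 1 of the 8 genes, against 38.1% of all genes: Bmp2 lay below CTL (16.1% of all genes did), and 0 of the 8 lay above CTL (22% of all genes did). The estimate reached 2-fold for 1 of the 8 genes, again Bmp2, against 21% of all genes. The median log2 fold change of the 8 genes was -0.02, and that of all genes tested was 0.07. All 8 genes had a mean of at least 10 reads and were tested, and no set test was made.

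**Figure D1:**
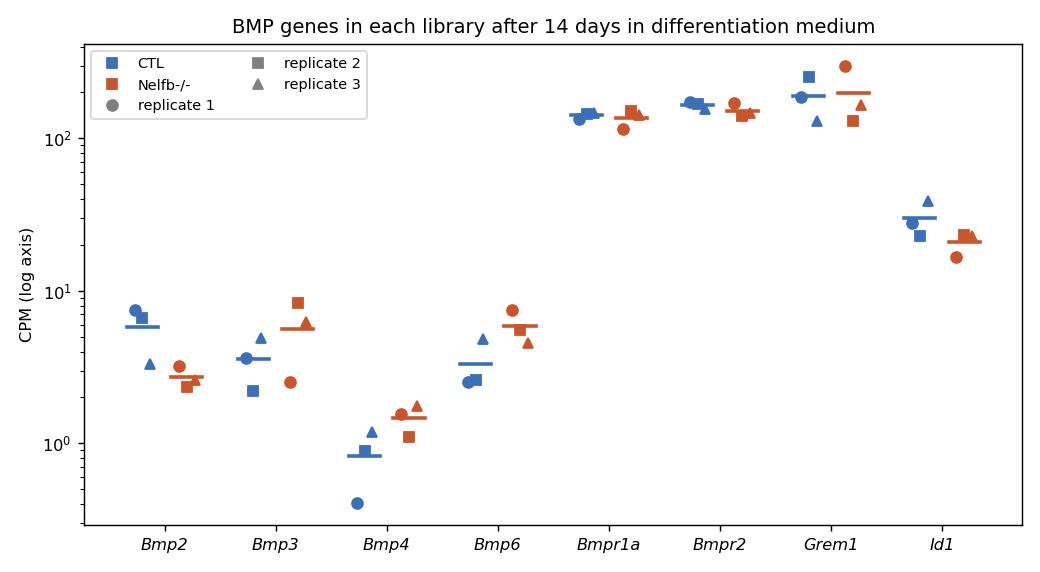
CPM on a log axis of the 8 BMP genes in each of the 6 libraries, with CTL in blue, Nelfb-/- in orange, a symbol for each replicate number and a bar at the group mean. Bmp2 is the gene at which the 3 Nelfb-/- libraries (2.33 to 3.22 CPM) all lie below the 3 CTL libraries (3.33 to 7.44 CPM), and the ligands lie far below the receptors and Grem1.

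Bmp2 (ENSMUSG00000027358, chromosome 2 from 133552159 to 133562885 on GRCm38) encodes a ligand that drives bone formation and can commit stem cells to the fat lineage. Its CTL values were 7.44, 6.67 and 3.33 CPM in the order of the replicates, and its Nelfb-/- values were 3.22, 2.33 and 2.61 CPM. CTL replicates 1 and 2 stood high, and CTL replicate 3 lay just above the highest Nelfb-/- library. Bmp2 had a CTL mean of 5.82 ± 2.18 CPM (SD, n = 3) and a Nelfb-/- mean of 2.72 ± 0.458 CPM. On the log2 scale, Bmp2 differed by -1.01 (95% interval -1.87 to -0.16, SE 0.36, limma adjusted p = 0.11). When CTL replicate 3 was omitted, the value of -1.37 passed the threshold (limma adjusted p = 0.018), and over 16 alternatives the adjusted p lay between 6.0e-04 and 0.30. Adipocyte markers were lowest among CTL libraries in this replicate. The exact two-sided permutation test gave p = 0.1, the smallest p that 3 libraries in each group can give. In such bulk samples, fewer cells that express a gene and less RNA of it per cell cannot be told apart.

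Bmp6 (ENSMUSG00000039004, chromosome 13 from 38345107 to 38500302), a ligand best known for the control of iron through hepcidin, had CTL values of 2.53, 2.61 and 4.86 CPM and Nelfb-/- values of 7.49, 5.53 and 4.53 CPM. CTL replicate 3 stood apart from the other CTL libraries and lay above Nelfb-/- replicate 3. The estimated log2 difference was 0.84 (95% interval 0.01 to 1.67, SE 0.34, limma adjusted p = 0.15). Without CTL replicate 3 Bmp6 passed with 1.14 (limma adjusted p = 0.041), against a range of 0.0053 to 0.37 over 16 alternatives. The annotated exons of Bmp6 share 224 bases with those of Txndc5, a neighbour on the opposite strand that was measured at 204 to 413 CPM. How reads in shared bases were assigned is not given in the sources used here, so that the 55.9 to 158 reads counted for Bmp6 in each library are uncertain. Txndc5 was lowest in Nelfb-/- replicate 1, where Bmp6 was highest, and its estimated log2 difference was 0.03 (limma adjusted p = 0.95, SE 0.29). The part of the shared bases in the values of Bmp6 was not tested.

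Bmp4 (ENSMUSG00000021835, chromosome 14 from 46383520 to 46390669), the ligand best known for commitment of mesenchymal cells to preadipocytes, had the lowest mean of the set per length of exon. It had CTL values of 0.406, 0.887 and 1.19 CPM and Nelfb-/- values of 1.56, 1.11 and 1.75 CPM. CTL replicate 3 lay above Nelfb-/- replicate 2, so that the groups overlapped. On the log2 scale, Bmp4 differed by 0.89 (95% interval -0.22 to 2.01, SE 0.46, limma adjusted p = 0.24). The difference of Bmp4 was 0.48 without CTL replicate 1 and lay between 0.45 and 1.34 over 16 alternatives. Its values rested on 9 to 43 reads per library, and neither no change nor a 4-fold increase lay outside the interval. The exons of Bmp4 share 89 bases with those of Gm15217, a gene on the opposite strand.

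Bmp3 (ENSMUSG00000029335, chromosome 5 from 98854415 to 98884396) differs from the other ligands in that it counteracts BMP signaling in bone. It had CTL values of 3.65, 2.19 and 4.90 CPM and Nelfb-/- values of 2.51, 8.27 and 6.20 CPM. Nelfb-/- replicates 2 and 3 held the highest values, whereas Nelfb-/- replicate 1 lay within the range of CTL. On the log2 scale, Bmp3 differed by 0.57 (95% interval -0.66 to 1.80, SE 0.51, limma adjusted p = 0.49). The difference was 1.06 without Nelfb-/- replicate 1 (limma adjusted p = 0.11), 0.21 without Nelfb-/- replicate 2 and 0.26 without CTL replicate 2. Over 16 alternatives the limma adjusted p lay between 0.013 and 0.85. The fibroblast markers were likewise lowest among the Nelfb-/- libraries in replicate 1.

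To set the ligands side by side, CPM was divided by the length of all annotated exons in kb. The sum of Bmp2, Bmp3, Bmp4 and Bmp6 was 3.42, 3.24 and 3.38 CPM per kb in CTL replicates 1, 2 and 3 and 3.86, 3.68 and 3.51 CPM per kb in Nelfb-/- replicates 1, 2 and 3. The 3 Nelfb-/- sums of these 4 genes all lay slightly above the 3 CTL sums, and their make-up differed more between libraries than the sums did. This holds for the 4 genes alone. With Bmp8a, a ligand described further on, the sum was 5.25, 4.89 and 5.99 CPM per kb in CTL and 4.30, 4.17 and 3.87 CPM per kb in Nelfb-/- cells, and Gdf10 alone varied from 0.107 to 6.16 CPM per kb over the 6 libraries. Bmp2 made up 61.3%, 58.0% and 27.8% of the sum in CTL and 23.5%, 17.8% and 20.9% in Nelfb-/- cells. Bmp6 made up 19.0%, 20.7% and 36.9% in CTL and 49.7%, 38.5% and 33.0% in Nelfb-/- cells, and CTL replicate 3 lay among the Nelfb-/- libraries. The level of Bmp2 per kb relative to that of Bmp6 was 3.23, 2.80 and 0.752 in CTL and 0.472, 0.462 and 0.632 in Nelfb-/- cells. Bmp2 was therefore the leading ligand of the 4 in CTL replicates 1 and 2, and Bmp6 was the leading ligand in CTL replicate 3 and in every Nelfb-/- library. These shares were computed after the values of the genes had been seen and were not tested, and those of Bmp6 carry the uncertainty of its shared bases.

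**Figure D2:**
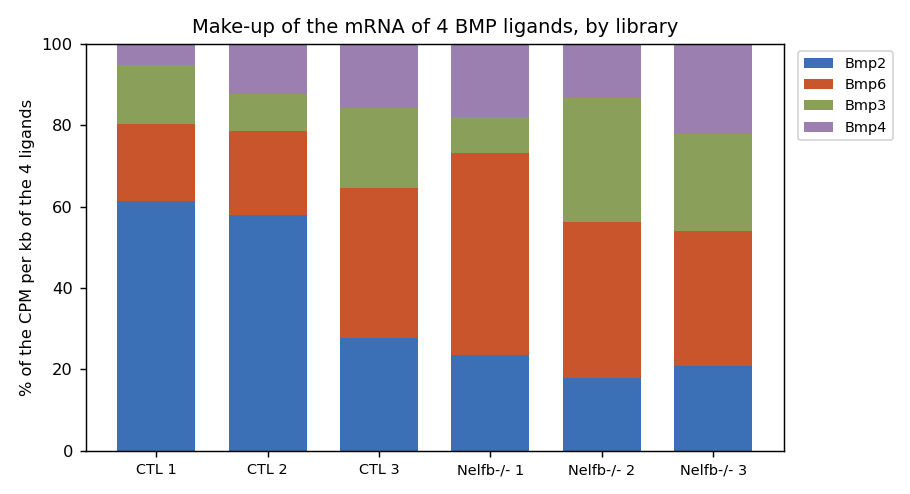
Share of each of 4 BMP ligands in their summed level (CPM per kb of exon, in percent) in each library, labelled by group and replicate number. Bmp2 (blue) makes up 61.3% and 58.0% in CTL replicates 1 and 2 and 27.8% in CTL replicate 3, and lies between 17.8% and 23.5% in the Nelfb-/- libraries.

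Among the receptors, neither Bmpr1a nor Bmpr2 passed the threshold, and for both the interval of the log2 fold change lay well inside a 2-fold change in either direction. Bmpr1a (ENSMUSG00000021796, chromosome 14 from 34410734 to 34503341), a type I receptor for BMP2 and BMP4, had CTL values of 135, 144 and 148 CPM and Nelfb-/- values of 115, 151 and 142 CPM. Nelfb-/- replicate 1 was the lowest library, and the other 5 lay close together. On the log2 scale, Bmpr1a differed by -0.07 (95% interval -0.43 to 0.29, SE 0.15, limma adjusted p = 0.78). Bmpr2 (ENSMUSG00000067336, chromosome 1 from 59763400 to 59879014), the type II receptor for BMPs, had CTL values of 173, 167 and 155 CPM and Nelfb-/- values of 172, 140 and 146 CPM. Its groups overlapped as well, with Nelfb-/- replicate 1 near the top of the CTL range. Bmpr2 differed on the log2 scale by -0.12 (95% interval -0.45 to 0.21, SE 0.14, limma adjusted p = 0.59). At least 2397 reads were counted in every library for each of these 2 receptors. The exons of Bmpr1a share 290 bases with those of Gm17110 on the opposite strand, which was measured at no more than 0.726 CPM.

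Grem1 (ENSMUSG00000074934, chromosome 2 from 113746164 to 113758646) encodes gremlin 1, a secreted protein that binds BMP2, BMP4 and BMP7. It had CTL values of 186, 253 and 131 CPM and Nelfb-/- values of 299, 130 and 167 CPM. The spread within each group was wide, with high values in CTL replicate 2 and Nelfb-/- replicate 1 and nearly equal low values in CTL replicate 3 and Nelfb-/- replicate 2. Grem1 had a CTL mean of 190 ± 61.1 CPM (SD, n = 3) and a Nelfb-/- mean of 199 ± 88.8 CPM. The estimated log2 difference was 0.03 (95% interval -0.86 to 0.91, SE 0.37, limma adjusted p = 0.97), and the sign changed with the scaling and with the library left out. Per kb, Grem1 exceeded the sum of the 4 ligands 13.1, 18.8 and 9.34 times in CTL and 18.7, 8.53 and 11.4 times in Nelfb-/- cells, so that both groups covered much the same range. This sum leaves out Bmp7 and Bmp8a and was not limited to the ligands named here as bound by gremlin 1.

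Id1 (ENSMUSG00000042745, chromosome 2 from 152736251 to 152737410) encodes an inhibitor of helix-loop-helix transcription factors and is a direct target of BMP-activated Smads. It had CTL values of 27.8, 23.0 and 39.1 CPM and Nelfb-/- values of 16.7, 23.1 and 23.0 CPM. CTL replicate 3 held the highest value and Nelfb-/- replicate 1 the lowest, and CTL replicate 2 lay close to Nelfb-/- replicates 2 and 3. Id1 differed on the log2 scale by -0.50 (95% interval -1.08 to 0.09, SE 0.24, limma adjusted p = 0.21). The difference was -0.29 without CTL replicate 3 and lay between -0.67 and -0.20 over 16 alternatives.

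**Figure D3:**
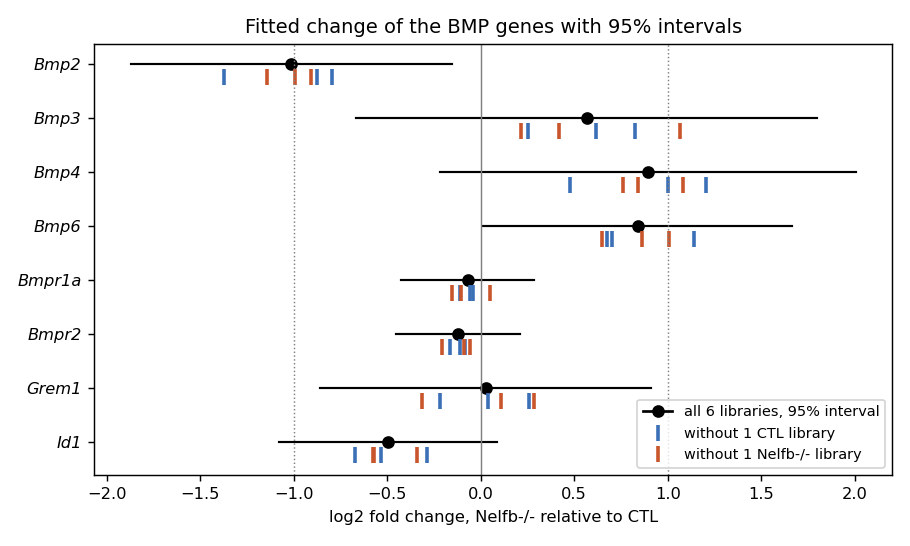
Log2 fold change of the 8 BMP genes in Nelfb-/- relative to CTL cells (black points, all 6 libraries) with the 95% interval from limma, and below each the value without 1 library (blue ticks, a CTL library left out; orange ticks, a Nelfb-/- library left out). Dotted lines mark a 2-fold change. The intervals of Bmpr1a (-0.43 to 0.29) and Bmpr2 (-0.45 to 0.21) are the narrowest, that of Bmp2 (-1.87 to -0.16) lies below 0 and that of Bmp6 (0.01 to 1.67) just above it.

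By CPM per kb, Grem1 had the highest and Bmp4 the lowest mean of the 8 members in both groups, whereas Id1 and Bmpr1a, and Bmp2 and Bmp6, traded places. In CTL, Grem1 led with 45.8 ± 14.7 CPM per kb (SD, n = 3), followed by Id1 with 25.8 ± 7.14, Bmpr1a with 22.4 ± 1.07, Bmpr2 with 9.18 ± 0.515, Bmp2 with 1.64 ± 0.615, Bmp6 with 0.855 ± 0.340, Bmp3 with 0.484 ± 0.183 and Bmp4 with 0.368 ± 0.176. The ranges over the CTL libraries overlapped between Grem1 and Id1, between Id1 and Bmpr1a, and between each ligand and the next, whereas Bmpr2 lay apart from both of its neighbours. In Nelfb-/- cells, Grem1 again led with 47.9 ± 21.4 CPM per kb. Bmpr1a with 21.4 ± 2.99 and Id1 with 18.1 ± 3.14 overlapped each other, and Bmpr2 with 8.47 ± 0.945 lay apart from both neighbours. Bmp6 with 1.50 ± 0.386 now led the ligands and lay above the range of Bmp2, at 0.765 ± 0.129. Bmp3 with 0.765 ± 0.394 and Bmp4 with 0.656 ± 0.148 could not be told from Bmp2 by their ranges.

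To place these genes in their pathway, 57 further BMP genes were listed by role, of which 45 were analysed and 40 had enough reads to be tested. Of the 40 genes, 2 (Bmpr1b and Bmp1) were upregulated and 2 (Bmp8a and Chrdl1) were downregulated past the threshold, against 7.58% and 3.64% of all genes. The median log2 fold change of the 40 genes was 0.32, with 26 higher (65%, against 54.6% of all genes) and 14 lower in Nelfb-/- cells. An unadjusted p under 0.05 was given for 22 of the 40 genes (55%, against 32.5%), and the groups did not overlap at 20 of them (50%, against 38.1%). By role, the threshold was passed by 1 of 3 ligands, 1 of 5 receptors, 0 of 5 co-receptors and pseudoreceptors, 1 of 11 secreted antagonists, 1 of 2 proteases, 0 of 4 Smads, 0 of 4 intracellular inhibitors and 0 of 6 targets. Without the limit of 2-fold, an adjusted p of at most 0.05 was given for 7 of the 40 genes (15.8% of all genes), the other three being Smad1, Smad5 and Nbl1. The count of upregulated genes rested on single libraries, since of the same 40 genes 8 passed without CTL replicate 3, 5 without Nelfb-/- replicate 1 and 1 without CTL replicate 1, CTL replicate 2, Nelfb-/- replicate 2 or Nelfb-/- replicate 3. Over all genes the count moved as well. It was 1232 with all libraries, 1703 without CTL replicate 3, 1246 without Nelfb-/- replicate 1 and 290 to 629 without 1 of the others.

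**Figure D4:**
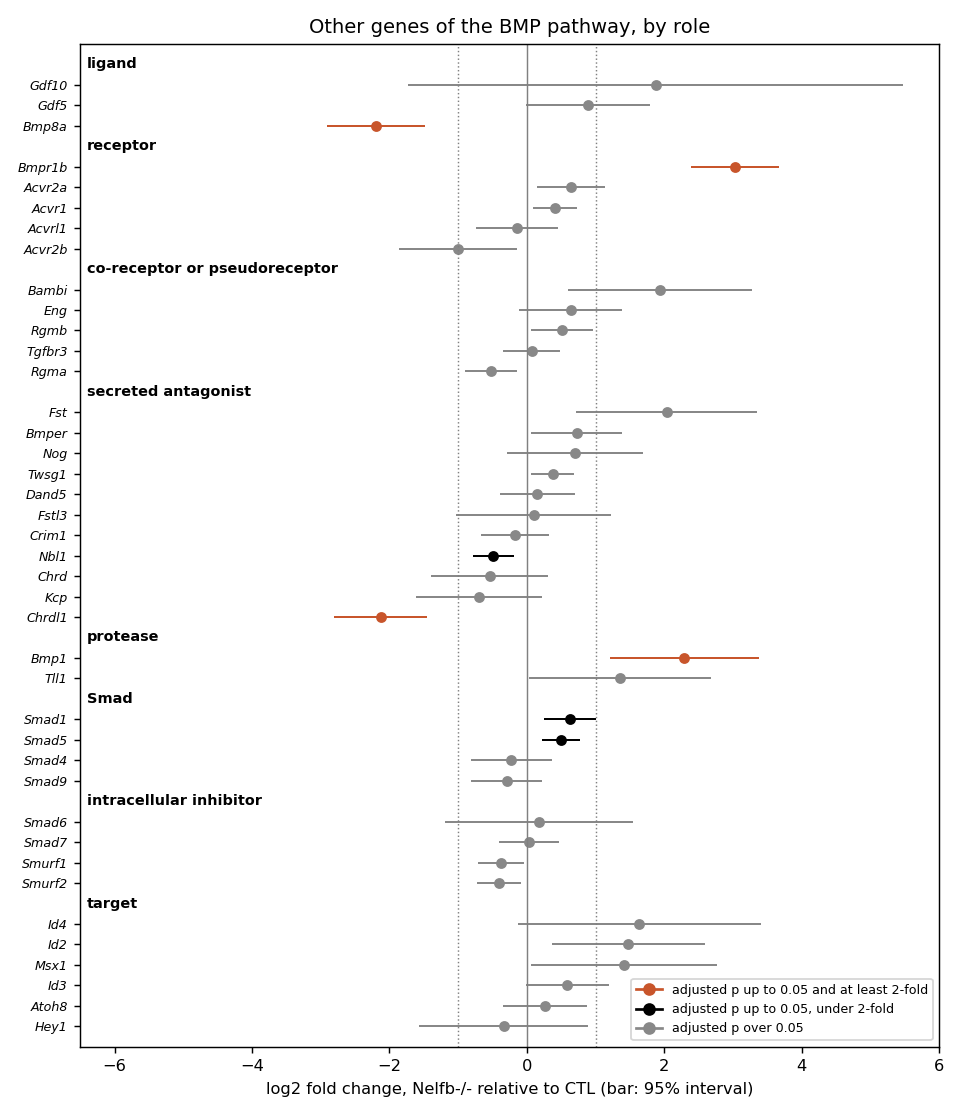
Log2 fold change in Nelfb-/- relative to CTL cells with the 95% interval from limma for the 40 other BMP pathway genes tested, grouped by role. The 4 genes past the threshold (orange) are Bmp8a, Bmpr1b, Chrdl1 and Bmp1, and Smad1, Smad5 and Nbl1 (black) pass on the adjusted p but not on 2-fold. Dotted lines mark a 2-fold change.

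Bmpr1b, a type I receptor related to Bmpr1a, rose in Nelfb-/- cells, and its difference from the change of Bmpr1a was not tested. Bmpr1b (ENSMUSG00000052430, chromosome 3 from 141837136 to 142169425) had CTL values of 0.586, 0.513 and 0.544 CPM and Nelfb-/- values of 4.36, 4.71 and 5.39 CPM. Every Nelfb-/- library lay far above every CTL library, with little spread in either group. The CTL values rested on 13, 11 and 16 reads. The estimated log2 difference was 3.03 (limma adjusted p = 0.0035, SE 0.26), and it passed the threshold in all 16 alternatives. With 1 CPM added to each value before the log2, the difference was 1.91. The level of Bmpr1b in Nelfb-/- cells nevertheless stayed below that of Bmpr1a, at 0.809 ± 0.0872 against 21.4 ± 2.99 CPM per kb (SD, n = 3).

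Bmp8a (ENSMUSG00000032726, chromosome 4 from 123312645 to 123343252), a BMP ligand with a close copy in Bmp8b, had CTL values of 4.42, 3.97 and 6.29 CPM and Nelfb-/- values of 1.04, 1.16 and 0.854 CPM. The Nelfb-/- values rested on 22, 20 and 21 reads. All Nelfb-/- libraries lay below all CTL libraries, and the estimated log2 difference was -2.19 (limma adjusted p = 0.0079, SE 0.29), past the threshold in all 16 alternatives. Bmp8b was measured at no more than 0.408 CPM, and how reads shared by both copies were counted is not given in the sources used here. Of the other ligands, Gdf10, the closest relative of Bmp3, had CTL values of 2.84, 0.560 and 31.6 CPM and Nelfb-/- values of 3.84, 32.1 and 21.7 CPM (log2 fold change 1.87, SE 1.50, limma adjusted p = 0.43). The log2 fold change of Gdf10 was 0.54 without CTL replicate 2 and 3.40 without CTL replicate 3, and it passed with weights for the libraries (3.70, limma adjusted p = 0.0041), the 1 of 16 alternatives in which it did. CTL replicate 3 and Nelfb-/- replicates 2 and 3 were thus the high libraries of Gdf10, as they were of Bmp3, except that CTL replicate 3 was nearly as high as the highest Nelfb-/- library.

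Of the 11 other secreted antagonists reported here, 1 passed the threshold. Chrdl1 (ENSMUSG00000031283, chromosome X from 143285674 to 143394262), a relative of chordin that binds BMP4, fell from 77.7, 80.1 and 124 CPM in CTL to 15.0, 24.5 and 24.9 CPM in Nelfb-/- cells. The estimated log2 difference was -2.13 (limma adjusted p = 0.0073, SE 0.27), past the threshold in all 16 alternatives. Twsg1, which can both hinder and aid BMP ligands, had a CTL mean of 86.7 ± 7.57 CPM (SD, n = 3) and a Nelfb-/- mean of 112 ± 5.68 CPM, which gave a log2 difference of 0.37 (limma adjusted p = 0.095, SE 0.13). Crim1, a transmembrane protein that binds BMPs, had a CTL mean of 69.5 ± 13.1 CPM and a Nelfb-/- mean of 61.2 ± 10.6 CPM (limma adjusted p = 0.58).

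Bmp1 is no BMP ligand but a metalloprotease, which cleaves procollagens and the antagonist chordin. Bmp1 (ENSMUSG00000022098, chromosome 14 from 70474558 to 70520234) had CTL values of 47.9, 52.6 and 105 CPM and Nelfb-/- values of 176, 442 and 402 CPM. The groups did not overlap, and CTL replicates 1 and 2 and Nelfb-/- replicate 1, the lower libraries of each group, also had the lower sums of fibroblast markers; the part of these in the result was not tested. Bmp1 differed on the log2 scale by 2.29 (limma adjusted p = 0.020, SE 0.45). The call was lost without CTL replicate 1 (adjusted p = 0.077), CTL replicate 2 (0.080), Nelfb-/- replicate 2 (0.068) or Nelfb-/- replicate 3 (0.087), all from limma, and over 16 alternatives the adjusted p lay between 4.5e-05 and 0.087. The related protease Tll1 had a CTL mean of 6.72 ± 5.03 CPM (SD, n = 3) and a Nelfb-/- mean of 15.3 ± 5.42 CPM (limma adjusted p = 0.14). Tll1 passed in 3 of 16 alternatives (adjusted p from 3.5e-04 to 0.36 in limma), among them without CTL replicate 3 (log2 difference 1.93, limma adjusted p = 0.023).

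**Figure D5:**
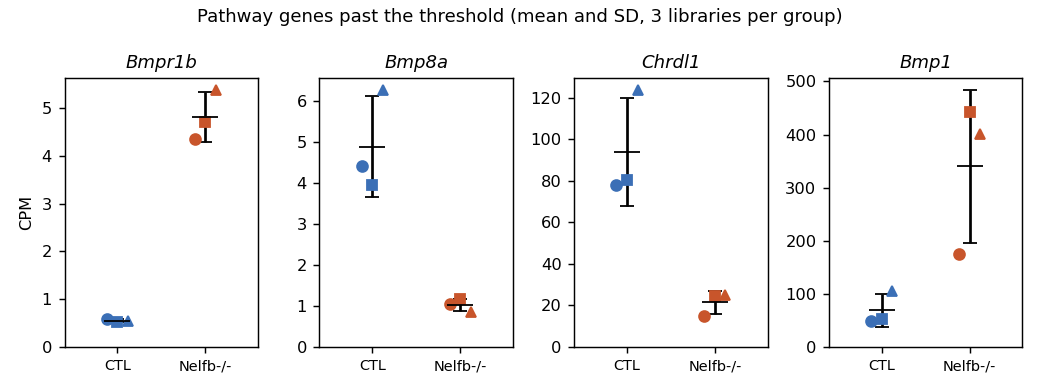
CPM of the 4 BMP pathway genes past the threshold in each library, from 0, with the mean and SD of the 3 libraries per group (circle, replicate 1; square, replicate 2; triangle, replicate 3; CTL in blue, Nelfb-/- in orange). Bmpr1b and Bmp1 are higher and Bmp8a and Chrdl1 are lower in all Nelfb-/- libraries, for example at 4.36 to 5.39 CPM against 0.513 to 0.586 CPM for Bmpr1b.

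Of the 4 Smads that carry the BMP signal into the nucleus, Smad1 and Smad5 had an adjusted p under 0.05 in limma, at less than 2-fold. Smad5 had a CTL mean of 68.3 ± 1.15 CPM (SD, n = 3) and a Nelfb-/- mean of 96.1 ± 2.61 CPM, which gave a log2 difference of 0.49 (limma adjusted p = 0.031, SE 0.11). The adjusted p of Smad5 stayed at or under 0.05 in 9 of 16 alternatives (range 5.3e-04 to 0.14), and was above it with TMM scaling (0.050 when rounded), without the abundance trend (0.061), with the replicate number as a block (0.081) and without CTL replicate 1 (0.13), CTL replicate 2 (0.12), Nelfb-/- replicate 2 (0.11) or Nelfb-/- replicate 3 (0.14). Smad1, named after its values were seen, had 28.4 ± 2.39 and 44.0 ± 5.93 CPM, which gave a log2 difference of 0.62 (limma adjusted p = 0.038, SE 0.15), at or under 0.05 in 7 of 16 alternatives (range 0.0020 to 0.13). It was above 0.05 with TMM scaling (0.053), with median-of-ratios scaling (0.055), without the abundance trend (0.062), with the replicate number as a block (0.064) and without any 1 library other than Nelfb-/- replicate 1 (0.054 to 0.13). Smad4, the partner shared with TGF-beta signaling, had 104 ± 23.0 and 89.0 ± 21.5 CPM (limma adjusted p = 0.55). The antagonist Nbl1, named after its values were seen, had a CTL mean of 53.0 ± 3.29 CPM and a Nelfb-/- mean of 37.7 ± 1.36 CPM, which gave a log2 difference of -0.49 (limma adjusted p = 0.039, SE 0.12). It was at or under 0.05 in 10 of 16 alternatives (range 0.0019 to 0.16), and above it without the abundance trend (0.071), with the replicate number as a block (0.093) and without CTL replicate 1 (0.12), CTL replicate 2 (0.16), Nelfb-/- replicate 2 (0.13) or Nelfb-/- replicate 3 (0.14).

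The other genes chosen for the highest CPM in their roles did not pass the threshold. Among receptors, the type II receptor Acvr2a had a CTL mean of 58.3 ± 13.7 CPM (SD, n = 3) and a Nelfb-/- mean of 89.4 ± 9.72 CPM (limma adjusted p = 0.078), and the type I receptor Acvr1 had 23.9 ± 1.18 and 31.7 ± 2.07 CPM (limma adjusted p = 0.080). The co-receptor Tgfbr3 had 443 ± 50.4 and 464 ± 42.1 CPM (limma adjusted p = 0.81), and the co-receptor Rgma had 53.6 ± 4.50 and 37.4 ± 5.25 CPM (limma adjusted p = 0.064). Smurf2 and Smurf1, ubiquitin ligases that mark Smads and receptors for breakdown, had log2 fold changes of -0.41 (limma adjusted p = 0.077) and -0.37 (limma adjusted p = 0.11).

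Id2 and Id3, relatives of Id1, had higher means in Nelfb-/- cells, and neither passed the threshold. Id2 had CTL values of 16.1, 14.0 and 42.2 CPM and Nelfb-/- values of 87.3, 47.8 and 49.5 CPM, which gave a log2 difference of 1.48 (limma adjusted p = 0.077, SE 0.46). Without CTL replicate 3 Id2 passed with 1.97 (limma adjusted p = 0.012), against a range of 3.3e-04 to 0.22 over 16 alternatives. Id3 had a CTL mean of 43.7 ± 10.1 CPM (SD, n = 3) and a Nelfb-/- mean of 65.7 ± 14.6 CPM, which gave a log2 difference of 0.59 (limma adjusted p = 0.15, SE 0.25). CTL replicate 3 held the highest CTL value of Id1, Id2 and Id3, and Nelfb-/- replicate 1 held the lowest value of Id1 but the highest value of Id2. Whether Id1 differed from Id2 and Id3 in its response was not tested.

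Below the limit for testing, Hjv, a co-receptor that acts with BMP6 in iron control, was measured at 0.0902, 0.0467 and 0 CPM in CTL, at or under the floor of 3 reads, and at 0.806, 0.931 and 0.653 CPM in Nelfb-/- cells. The antagonist Sostdc1 was at 0 in every CTL library and at 0.332, 0.349 and 0.653 CPM in Nelfb-/- cells. Both genes were named after their values were seen, and they are given as values with no test, since they reached 10 reads in Nelfb-/- libraries alone. Of the other listed genes below the limit, Dlx5 and Bmp8b lay lower in Nelfb-/- cells and Gdf6 overlapped. Dlx5 was at 0.361, 0.233 and 1.33 CPM in CTL and at 0.0474, 0.175 and 0.0816 CPM in Nelfb-/- cells. Bmp8b was at 0.181, 0.188 and 0.408 CPM and at 0, 0 and 0.0842 CPM. Gdf6 was at 0, 0 and 0.578 CPM and at 0.616, 0.466 and 0.530 CPM. Dlx5, Bmp8b and Gdf6 were also named after their values were seen and not tested.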

How the data were processed

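RNA-seq of 3 CTL and 3 Nelfb-/- replicates was analysed from a table deposited by the authors. The submitters' processing notes name mm10, STAR 2.7 and Partek 9.0.20.0202, and genes under 10 reads were left out per the paper's methods. How reads were assigned to genes is not given in the sources used here. The authors deposited CPM values, with an offset of 0.0001 CPM that was subtracted. Depth was read from the equal steps of low values, but no more than 74.0% of values under 20 reads came out whole (tolerance 0.03 reads), so that no count-based test was run. Values were multiplied by the common depth of 22.3 M reads (M, 1e+06), genes averaging 10 reads (0.448 CPM) or more were kept, and log2(value + 1) was tested with limma (3.58.1, R 4.3.3) with an abundance trend and Benjamini-Hochberg adjustment over all 16251 genes. A fold change on this scale understates the change of low genes. The threshold was 2-fold or more with an adjusted p no higher than 0.05. Positions and exon lengths were taken from GENCODE (M21, GRCm38), in which all 8 genes have the same positions as in the table. The members and lists were chosen with earlier results of these data known. Besides the members and Nelfb, the genes named are those of the pathway list that passed the threshold, the 2 with the highest CPM in each role, and those said to be named after their values were seen. Txndc5, Gm15217, Gm17110 and Bmp8b are named as neighbours or a close copy. Genes with the most similar pattern were to be named for members past the threshold, of which there were none. The script was tested on simulated data. There were 16 alternatives. A gene of the pathway list is not reported here, and the counts over the list leave it out.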

Additional observations from a re-analysis of the deposited data

How the results depend on the processing

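The counts of BMP genes past the threshold (0 up, 0 down) stayed at 0 with another pseudocount, filter or scaling, without the abundance trend and with the replicate block. Leaving out single libraries, they lay between 0 and 1 in each direction, since Bmp2 and Bmp6 passed without CTL replicate 3. With weights estimated for the libraries, 2 members were up (Bmp3, 1.09, and Bmp4, 1.34, on the log2 scale) and 1 was down (Bmp2, -1.42); these weights come from limma's gene-by-gene method, as its default method did not converge. With these weights 2839 of all genes were up and 1479 down in place of 1232 and 592, and 11 pathway genes were up in place of 2. Leaving out each library gave 290 to 1703 genes up and 136 to 776 down, and 1 to 9 pathway genes up and 2 to 3 down. The 9 (without CTL replicate 3) and the 2 without CTL replicate 1 each hold Hjv, which reached the mean of 10 reads only with a CTL library left out. Pathway genes up were 4 without a filter and 4 when 10 reads in any library sufficed, in which Hjv and Sostdc1 were added; under the second rule they entered through Nelfb-/- libraries alone, so that their calls are no support.

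The labels do not say whether the replicate numbers pair the libraries. Deviations from the group means correlated across genes at 0.52, -0.39 and 0.52 for numbers 1, 2 and 3. Between libraries of different numbers they correlated at -0.63 to 0.54. These values cannot decide the pairing, since the deviations within a group depend on each other. With the replicate block, 6 pathway genes were up (Bambi, Fst and Id4, named after their values were seen, and Tll1 beside Bmpr1b and Bmp1), Smad1, Smad5 and Nbl1 had an adjusted p of 0.064, 0.081 and 0.093 in limma, and over all genes 1505 were up and 670 down.

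The sign of genes near 0 turned. Bmpr1a was at 0.050 with weights and -0.15 to 0.047 with a library left out. Grem1 was at -0.050 with TMM scaling, -0.043 with median-of-ratios scaling, -0.38 with weights and -0.31 to 0.28 with a library left out. Tgfbr3 was at -0.0077, -0.0013, -0.058 and -0.0056 to 0.16 under the same settings. The cause was not tested. The scalings moved the median of all genes by -0.08 and -0.07. Bmp4 rested on the fewest reads of the members, 9 to 43 per library.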
